A study of Mus musculus with 8 samples.

Results

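The mitochondrial ribosomal proteins were taken as every gene whose symbol is Mrpl or Mrps followed by a number and an optional letter. The rule found 77 of the 23997 gene symbols in the deposited tables. Of these, 48 have Mrpl symbols and were counted as large-subunit genes, and 29 have Mrps symbols and were counted as small-subunit genes.

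The mitochondrial ribosome translates the few mRNAs made from mitochondrial DNA, all of which encode core subunits of the respiratory chain or the ATP synthase. Its RNA comes from the mitochondrial genome, but every one of its proteins is encoded in the nucleus, made on cytosolic ribosomes and imported. The small subunit binds the mRNA and holds the decoding centre, whereas the large subunit forms the peptide bond and sits at the inner membrane, into which most of its products are inserted. A few symbols differ from the position of the protein: Mrps18a and Mrps30 lie in the large subunit of the mammalian particle, and Mrps36 is a component of the 2-oxoglutarate dehydrogenase complex. These 3 genes were kept under their symbols in the counts.

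The data were 8 RNA-seq libraries from embryonic lungs of C57BL/6 mice, 6 of them made by translating ribosome affinity purification (TRAP). In this method the ribosomes of labelled cells are pulled down and the mRNA bound to them is sequenced. Wild-type lungs gave 1 TRAP library and 1 whole-lung homogenate library at embryonic day 14 (E14). At E16 there were 2 TRAP libraries of the Sox9 mutant and 2 TRAP libraries of the wild type, and at E17 wild-type lungs again gave 1 TRAP and 1 whole-lung library. All 8 samples carry tamoxifen-induced TRAP labelling, and ribosomes were recovered through the ribosomal protein L10. Sox9 is a transcription factor made in the distal tips of the lung epithelium. The labels used here name neither the promoter that drives the labelling nor the part of Sox9 that is changed. The series design calls the E14 reference a supernatant, while its own label calls it a homogenate of the lung, and the E16 titles also carry E13 without saying what it marks. The labels do not say whether replicates are separate animals. The p-values therefore reflect only how far these libraries differ, which may be technical.

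Values are FPKM, fragments per kilobase of transcript scaled by library size, as the authors deposited them. Between 9783768 and 21500523 fragments per library could be inferred from the deposited confidence bounds, and each member rested on at least 156 of them, with a median per library between 687 and 1276. Tests used limma on log2(FPKM + 1), with Benjamini-Hochberg adjustment over all records whose mean was at least 1 FPKM, and a gene was called at an adjusted p under 0.05. All 77 members passed that filter in every fit. The labelled tissue was checked by its markers: Nkx2-1, the transcription factor that defines lung epithelium, stood at 315 FPKM in TRAP against 78.3 FPKM in whole lung at E14, and at 491 FPKM in TRAP against 194 FPKM in whole lung at E17.

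Every member was detected in every library, but over a wide range of levels. The mean over the 8 libraries ran between 6.77 FPKM for Mrpl1 and 444 FPKM for Mrpl52, a ratio of 65.7, with a median of 49.2 FPKM over the members. At least 10 FPKM was reached by 74 members and at least 100 FPKM by 19. The 10 highest members held 40.7% of the summed FPKM of the set. Among the large-subunit genes the highest means were those of Mrpl52 (444 FPKM), Mrpl54 (284 FPKM) and Mrpl12 (277 FPKM), the last of which encodes the stalk protein that also binds mitochondrial RNA polymerase. The lowest were Mrpl1 (6.77 FPKM), Mrpl35 (8.65 FPKM) and Mrpl19 (9.01 FPKM). Among the small-subunit genes Mrps21 (422 FPKM), Mrps36 (118 FPKM) and Mrps12 (116 FPKM), whose product lies at the decoding centre, had the highest means. Mrps31 (13.0 FPKM), Mrps25 (15.0 FPKM) and Mrps27 (19.5 FPKM) had the lowest. Both subunits thus held genes of high and of low mRNA level, although their proteins are joined in 1 particle.

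The order of the members was nearly the same in all 8 libraries. Over the 28 pairs of libraries the rank correlation of their FPKM ran between 0.952 and 0.997, and over the pairs of a mutant and a wild-type E16 library between 0.978 and 0.982. It was 0.958 between E14 TRAP and E14 whole lung, 0.977 between E17 TRAP and E17 whole lung, and 0.976 between E17 TRAP and E14 TRAP, each over 77 genes. These are descriptions across genes, and the libraries share gene lengths and annotation. The 3 paralogs of the bacterial protein S18 kept their own levels as well, with means of 77.1 FPKM for Mrps18a, 42.0 FPKM for Mrps18b and 111 FPKM for Mrps18c.

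**Figure D1:**
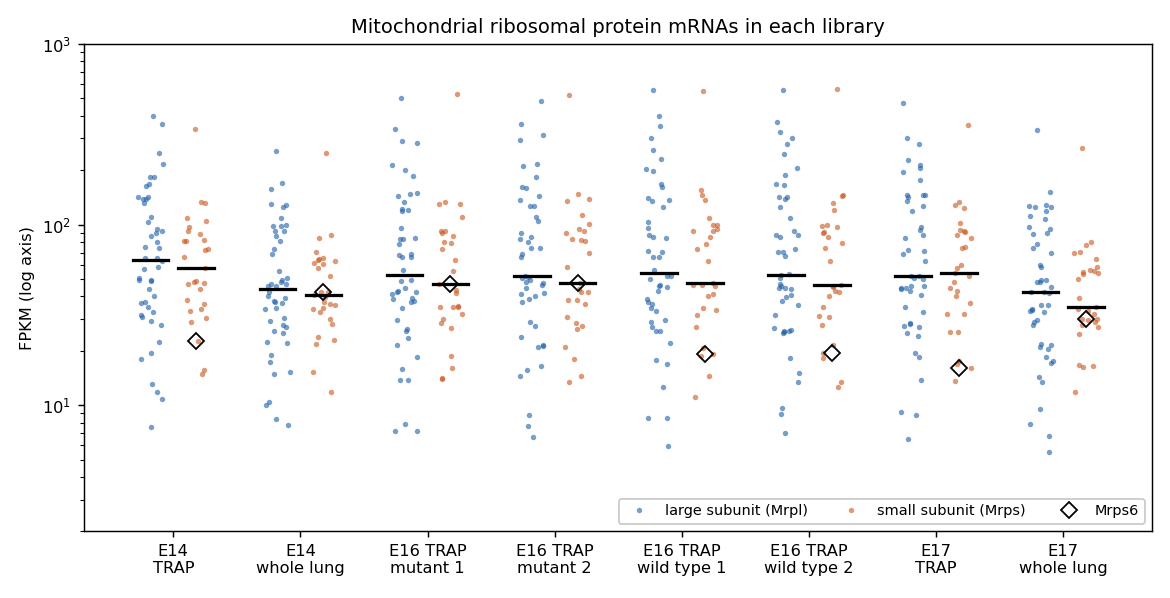
FPKM (log axis) of each member in each library, large-subunit genes in blue and small-subunit genes in orange, with a black line at the median of each subunit and an open diamond at Mrps6. The large-subunit median was 64.0 FPKM in E14 TRAP and 43.9 FPKM in E14 whole lung. Mrps6 was at 46.8 and 47.2 FPKM in mutant TRAP against 19.3 and 19.4 FPKM in wild-type TRAP.

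mRNAs of the mitochondrial ribosome were more abundant in the TRAP libraries than in whole lung. The summed FPKM of the 77 genes at E14 was 6478 in TRAP and 4379 in whole lung, and at E17 it was 6547 in TRAP and 4330 in whole lung. Counted over records of at least 200 bases, the set made up 1.02% of the E14 TRAP total against 0.754% of the E14 whole-lung total, and 1.00% of the E17 TRAP total against 0.691% of the E17 whole-lung total. The joint fit of the 4 libraries, with stage as an additive term, called 36 of 48 large-subunit genes and 19 of 29 small-subunit genes higher in TRAP. The background was 23.6% of 12320 records called higher and 17.1% called lower. No large-subunit gene had a negative difference, and Mrps6 alone among the 77 was called lower. The median log2 difference was 0.52 for the large subunit and 0.42 for the small subunit, against 0.05 for all records.

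The shift was seen at each stage separately, where there is 1 library per fraction and hence no test. At both stages 72 of the 77 members were higher in TRAP, and Mrps6 was lower at both. This pattern was not counted over all records. In the joint fit 76 members had a positive difference, against 6657 of 12320 records. At E14, 20 large-subunit and 8 small-subunit genes were at least 1.5-fold higher in TRAP, beside 16.2% of all records. At E17 the counts were 17 and 10, beside 14.3% of all records. Mrps6 alone was 1.5-fold lower, beside 17.8% of all records at E14 and 15.0% at E17. Past 2-fold higher were Mrpl12, Mrps28 and Mrps34 at E14 (6.01% of all records) and Mrpl12 and Mrpl54 at E17 (4.83% of all records). The deposited bounds of TRAP and whole lung did not overlap for 40 large-subunit and 24 small-subunit genes on the higher side at E14 (35.6% of all records), and for 44 and 22 at E17 (37.9% of all records). On the lower side Mrps6 was the only such member at E14 (32.1% of all records) and at E17 (27.7% of all records). Whether the difference between fractions itself differed between the stages was tested in a fit of all 8 libraries, which takes its spread from the E16 replicates. No member passed limma's test there, against 0.351% of 12248 records with a positive and 0.563% with a negative difference, the smallest adjusted p was 0.131, and 7 members had an unadjusted p under 0.05.

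Mrpl12, the stalk protein, and Mrpl54 led the large subunit. Mrpl12 stood at 362 FPKM in TRAP against 169 FPKM in whole lung at E14, and at 279 FPKM in TRAP against 128 FPKM in whole lung at E17. The log2 difference was 1.10 (SE 0.09, adjusted p = 0.00124). Mrpl54, at chr10:81264722-81266926, had 250 FPKM in TRAP against 129 FPKM in whole lung at E14, and 302 FPKM in TRAP against 126 FPKM in whole lung at E17 (log2 difference 1.10, SE 0.11, adjusted p = 0.00196). For both genes each TRAP library was far above each whole-lung library. Mrpl34, a small basic protein of the large subunit, followed at 216 and 213 FPKM in E14 and E17 TRAP against 108 and 112 FPKM in E14 and E17 whole lung (log2 0.96, adjusted p = 0.00165). Mrpl37 (0.80) and Mrpl36 (0.78) completed the highest 5, with adjusted p of 0.00286 and 0.00295.

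In the small subunit the highest difference was that of Mrps28. It had 96.8 FPKM in TRAP against 40.6 FPKM in whole lung at E14, and 88.1 FPKM in TRAP against 49.7 FPKM in whole lung at E17 (log2 1.02, SE 0.13, adjusted p = 0.00355). Mrps34, at chr17:24895120-24896273, had 109 and 91.3 FPKM in E14 and E17 TRAP against 52.0 and 52.9 FPKM in E14 and E17 whole lung (log2 0.91). Mrps36 (0.87), the dehydrogenase component, Mrps12 (0.86), at the decoding centre, and Mrps14 (0.70) came next, with adjusted p between 0.00229 and 0.00633. All 3 Mrps18 paralogs were called higher: Mrps18c by 0.65, Mrps18b by 0.58 and Mrps18a by 0.40 on the log2 scale. Mrps30 had a difference of 0.26 and an adjusted p of 0.0903. With Mrps18a and Mrps30 moved to the large subunit and Mrps36 left out, the counts called higher were 37 large-subunit and 17 small-subunit genes.

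The members with the smallest differences came from both subunits. Mrps25 had 14.8 FPKM in TRAP against 15.3 FPKM in whole lung at E14, and 16.9 FPKM in TRAP against 16.4 FPKM in whole lung at E17, with an adjusted p of 0.983. Mrps2 (log2 0.03), Mrps16 (0.12) and Mrps9 (0.19) had adjusted p between 0.204 and 0.824. In the large subunit Mrpl24 (0.06), Mrpl1 (0.08), Mrpl48 (0.12), Mrpl19 (0.16) and Mrpl32 (0.19) had adjusted p between 0.26 and 0.662. Several of these are among the lowest members, and the difference rose with the level across the set: the rank correlation of the TRAP difference with mean FPKM was 0.557 over the 77 members and 0.406 over all records. The rank correlation of the TRAP difference with fragments per FPKM, which grows with transcript length, was -0.309 over the members and -0.296 over all records. FPKM of short and of long transcripts share a library, and the +1 also shrinks the difference of low genes. These are descriptions only, and the part of length in the difference was not tested.

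**Figure D2:**
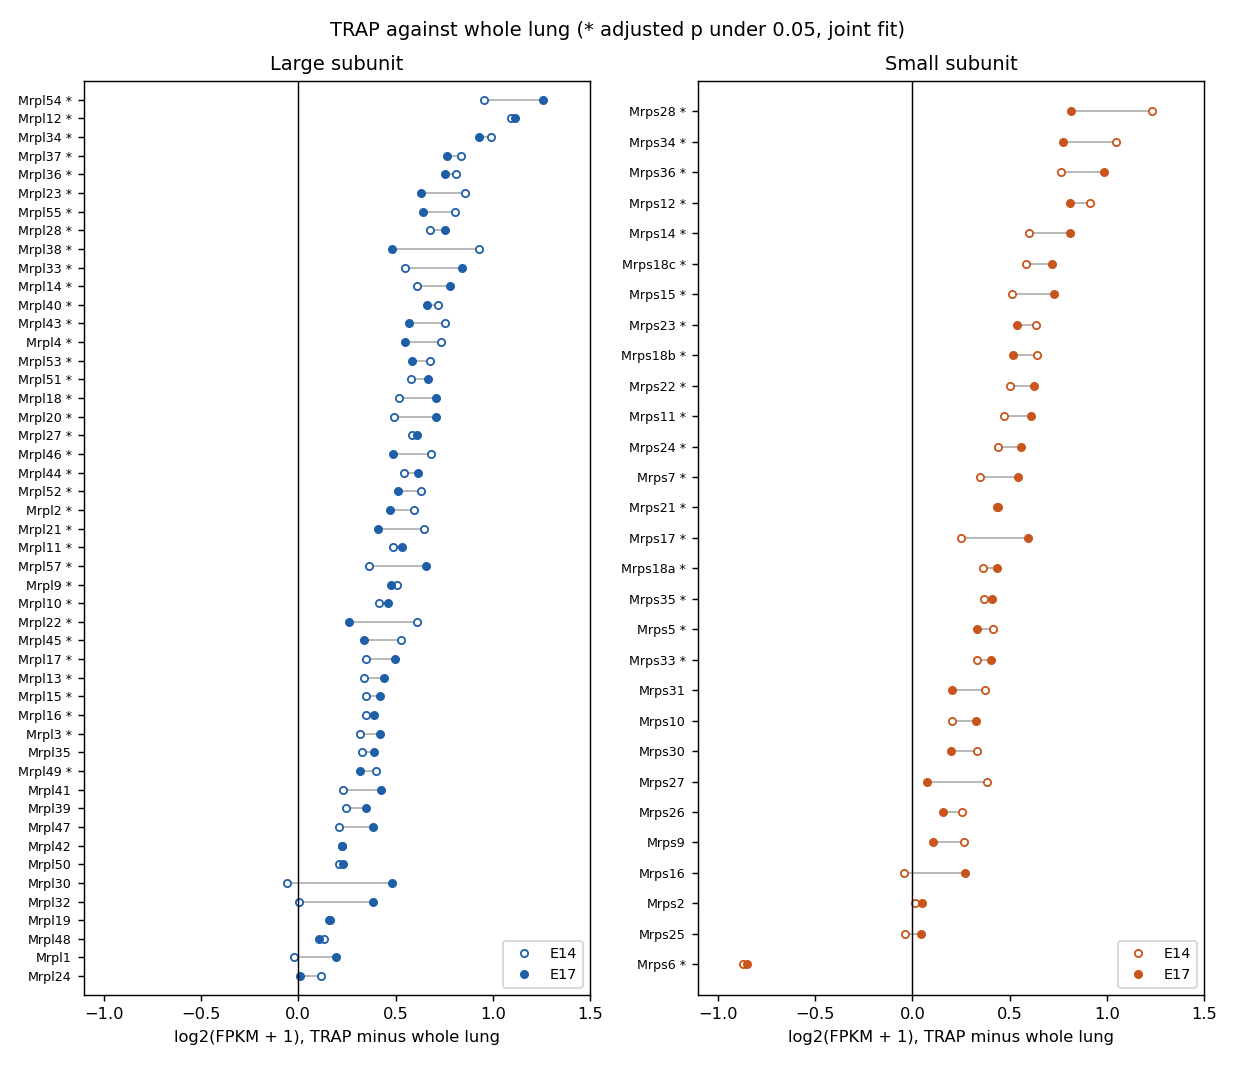
log2(FPKM + 1) in TRAP minus whole lung for each member, at E14 (open circles) and E17 (filled circles), ordered by the joint fit within each subunit, with a star where the adjusted p was under 0.05. All but a few circles lie right of 0, led by Mrpl54 and Mrpl12 (1.10 each) and Mrps28 (1.02), and Mrps6 alone lies far to the left (-0.86).

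The rest of the mitochondrial translation system was examined in the same fit, where 23.6% of all records were called higher and 17.1% lower. Among 6 proteins of the particle without an Mrp symbol, 4 were called higher in TRAP, namely Chchd1 (log2 0.90), Aurkaip1 (0.70), Gadd45gip1 (0.56) and Ict1 (0.50), the last a peptidyl-tRNA hydrolase built into the large subunit. Of 24 assembly factors 6 were called higher, among them Mpv17l2 (0.79), Mtg2 (0.55), a GTPase of the large subunit, and Rbfa (0.46), a factor of the small subunit. Mterfd2 was called lower at -1.01. Of 14 translation factors 5 were higher and 0 lower, with Mtif3 (0.70), an initiation factor, Tsfm (0.66) and Tufm (0.43), the elongation factor pair, and Slirp (0.56), an mRNA-binding protein. Of 17 mitochondrial tRNA synthetases 9 were higher and 0 lower, led by Vars2 (0.65), Yars2 (0.59), Tars2 (0.52) and Lars2 (0.47). Of 11 genes of mitochondrial DNA transcription and replication 4 were higher and 0 lower, namely Ssbp1 (0.59), Top1mt (0.55), Mgme1 (0.49) and Tfb2m (0.43). Among 10 regulators of mitochondrial biogenesis past the filter, Mycn (1.48), Nrf1 (0.42) and Yy1 (0.35) were higher and 2 were lower, Myc (-1.37) and Gabpa (-0.38).

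Subunits of the respiratory chain, whose mitochondrially made partners are the products of this ribosome, showed a like count: 54 of 78 nuclear-encoded genes were higher and 1 was lower, with a median log2 difference of 0.43. Cytosolic ribosomal proteins did not share this direction, with 3 of 75 higher, 15 lower and a median of -0.20. The members' median was therefore above that of the cytosolic ribosome by these counts, though the difference between the lists was not tested.

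The fractions also differed in cell types. All 12 epithelial markers were called higher in TRAP, with sums of 2946 and 3342 FPKM in E14 and E17 TRAP against 633 and 1185 FPKM in E14 and E17 whole lung. All 12 mesenchymal markers were lower (322 and 329 FPKM in TRAP, 1493 and 1937 FPKM in whole lung, at the same stages), as were all 10 endothelial markers (67.1 and 104 FPKM in TRAP, 342 and 623 FPKM in whole lung). All 7 leukocyte markers past the filter were lower (5.36 and 11.1 FPKM in TRAP, 57.7 and 93.9 FPKM in whole lung). Of 6 erythroid markers 5 were lower (3365 and 3476 FPKM in TRAP, 15156 and 13331 FPKM in whole lung). Of 5 cardiac muscle markers 1 was higher and 3 were lower (14.2 and 15.1 FPKM in TRAP, 39.2 and 52.9 FPKM in whole lung). The fractions differ in cell types and in ribosome-bound against total RNA at once, and in such bulk samples fewer cells of a type and less RNA per cell cannot be told apart. With every library set to 1 common FPKM total, no member passed as higher (4.44% of all records did) and Mrps6 alone as lower (23.2% of all records). The median of all records moved to -0.29 there. The members' medians of 0.14 and 0.04 stood 0.44 and 0.33 above it, against 0.47 and 0.37 as deposited. Mir762 held 33.95% of the E17 TRAP total used in that scaling. With a common total over records of at least 200 bases, 42 members were called higher and Mrps6 alone lower. The members' medians then stood 0.46 (large) and 0.36 (small) above that of all records. With libraries centred on their medians, 56 members were called higher and Mrps6 alone lower.

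Mrps6 was the exception in TRAP and in the mutant. It encodes the small-subunit protein bS6m, which in bacteria pairs with S18 in the platform of the subunit. The gene lies at chr16:92058336-92112227 (mm10). Its level was 22.6 FPKM in TRAP against 42.1 FPKM in whole lung at E14, and 16.1 FPKM in TRAP against 29.9 FPKM in whole lung at E17. Both TRAP values lay below both whole-lung values, and the log2 difference was -0.86 (SE 0.10, adjusted p = 0.00298). At E16 its TRAP level was 46.8 and 47.2 FPKM in the Sox9 mutant against 19.3 and 19.4 FPKM in wild-type TRAP, a mean of 47.0 ± 0.267 against 19.3 ± 0.0978 FPKM (SD, n = 2 each). The log2 difference was 1.24 (SE 0.05, adjusted p = 7.05e-05), or 2.36-fold on the FPKM + 1 scale, and both mutant values also lay above the wild-type TRAP values of E14 and E17. These values rested on 573 and 501 fragments in mutant TRAP and on 234 and 255 in wild-type TRAP.

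The Mrps6 record overlaps Slc5a3, the sodium and myo-inositol cotransporter gene, over 29138 bases. Slc5a3 starts only 14 bases before Mrps6 on the same strand, so that the same bases lie upstream of both. The 236 bases before the Slc5a3 start are shown here because they are the region upstream of both genes. They are on the plus strand at chr16:92058086-92058321, taken from RefSeq (GRCm38.p6), with matches to the GC box GGGCGG in capitals.
Mrps6 and Slc5a3 upstream: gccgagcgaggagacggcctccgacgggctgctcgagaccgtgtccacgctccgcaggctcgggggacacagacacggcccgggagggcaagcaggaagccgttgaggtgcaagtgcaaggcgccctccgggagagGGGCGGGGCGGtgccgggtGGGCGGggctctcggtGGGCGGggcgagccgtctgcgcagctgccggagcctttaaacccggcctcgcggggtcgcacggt

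Slc5a3, looked up after its values were seen, was low throughout but lay on the same side as Mrps6 in each comparison. It had 0.208 FPKM in TRAP against 1.70 FPKM in whole lung at E14, and 0.171 FPKM in TRAP against 0.778 FPKM in whole lung at E17. In the mutant it had 0.393 and 0.452 FPKM against 0.162 and 0.173 FPKM in wild-type TRAP, on 107 and 104 fragments in mutant TRAP against 37 and 44 in wild-type TRAP. It fell under the filter on low values. In the limma fits without a filter its log2 difference was 0.29 in the mutant (adjusted p = 0.0205) and -0.88 in TRAP (adjusted p = 0.0409). The stage difference was -0.32 and was not called (adjusted p = 0.34). How the authors' counting divided fragments between the overlapping records was not given in the sources used, so the division between the pair is uncertain.

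**Figure D3:**
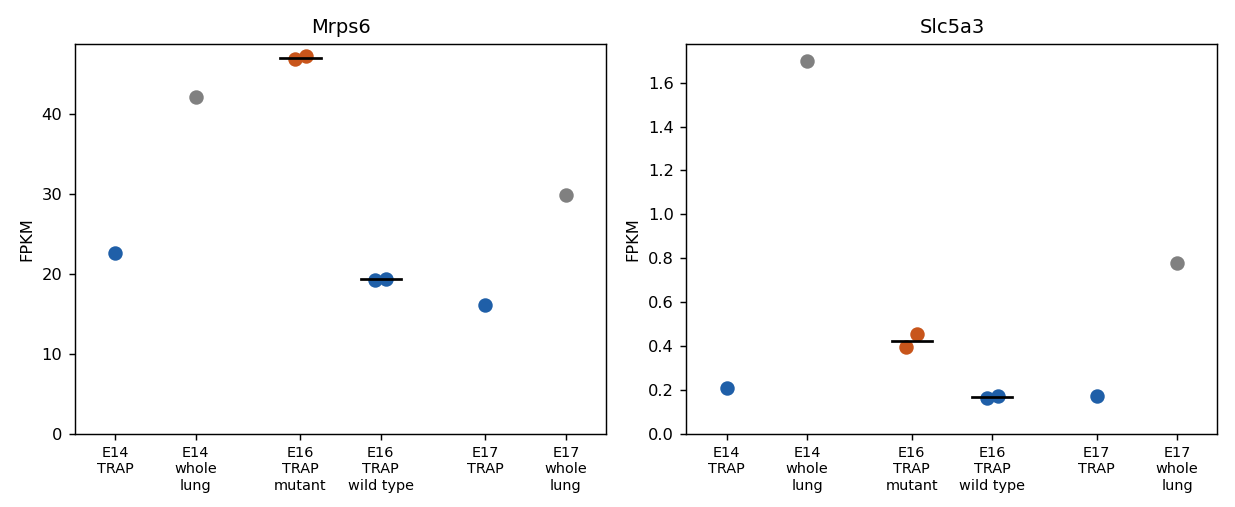
FPKM of Mrps6 (left) and of the overlapping gene Slc5a3 (right) in each library, with TRAP in blue, mutant TRAP in orange, whole lung in grey and a line at the mean of each E16 genotype. Mrps6 was at 46.8 and 47.2 FPKM in mutant TRAP against 19.3 and 19.4 FPKM in wild-type TRAP, and the highest Slc5a3 value was 1.70 FPKM in E14 whole lung.

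In the Sox9 mutant the targeted gene itself fell to 12.8 and 11.0 FPKM, against 35.9 and 36.4 FPKM in wild-type TRAP (log2 -1.53, adjusted p = 0.000153). Apart from Mrps6, the differences of the mitochondrial ribosomal genes lay between -0.41 and 0.31. The summed FPKM of the set was 6610 and 6832 in mutant TRAP against 7243 and 7248 in wild-type TRAP, or 0.910% and 0.926% of the mutant totals against 0.955% and 0.929% of the wild-type totals over records of at least 200 bases. In the large subunit 3 genes were called higher and 7 lower, and in the small subunit 1 was called higher and 4 lower. The background was 17.4% of 11872 records called higher and 14.3% called lower. The 11 members called lower were 14.3% of the set, equal to the background, and the 4 called higher were 5.19%. The median log2 difference was -0.10 for the large subunit and -0.11 for the small subunit, against 0.01 for all records. Both mutant values lay below both wild-type values for 43 of the 77 members (33.3% of all records did so), and above them for 9 (36.8% of all records).

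Mrpl23, a protein near the exit of the peptide tunnel in the bacterial ribosome, had the largest fall. It stood at 149 and 159 FPKM in mutant TRAP against 204 and 207 FPKM in wild-type TRAP, with means of 154 ± 7.07 and 205 ± 1.78 FPKM (SD, n = 2 each). The log2 difference was -0.41 (SE 0.05, adjusted p = 0.00268). Mrpl33 followed with 214 and 216 FPKM in mutant TRAP against 258 and 281 FPKM in wild-type TRAP (log2 -0.32, adjusted p = 0.00903). The 2 genotypes did not overlap for either gene.

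The other large-subunit genes called lower changed less. Mrpl11, of the stalk base, had 21.5 and 21.4 FPKM in mutant TRAP against 25.8 and 25.7 FPKM in wild-type TRAP (log2 -0.25, adjusted p = 0.015). Mrpl34 had 200 and 211 FPKM in mutant TRAP against 230 and 246 FPKM in wild-type TRAP (log2 -0.21, adjusted p = 0.0392). Mrpl21, Mrpl13 and Mrpl52 were the remaining calls, and Mrpl16 had -0.23 with an adjusted p of 0.112. In the small subunit Mrps10 (-0.28), Mrps33 (-0.26), Mrps17 (-0.18) and Mrps18a (-0.18) were called lower, with adjusted p between 0.0181 and 0.0407. Mrps18b had a difference of -0.24 with an adjusted p of 0.104, Mrps18c one of -0.04, Mrps30 one of -0.14 and Mrps36 one of -0.10.

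Mrpl32, whose product is cut by the m-AAA protease before it joins the large subunit, was the highest of the large-subunit genes. It had 44.6 and 49.1 FPKM in mutant TRAP against 37.3 and 37.9 FPKM in wild-type TRAP (log2 0.31, SE 0.06, adjusted p = 0.0146). Mrpl44, a protein related to RNase III, had 37.7 and 41.2 FPKM in mutant TRAP against 34.6 and 31.5 FPKM in wild-type TRAP (log2 0.25, adjusted p = 0.0465). Mrpl48 had 48.8 and 51.3 FPKM in mutant TRAP against 42.9 and 43.9 FPKM in wild-type TRAP (log2 0.20, adjusted p = 0.0321), and its record shares 411 bases with Rab6a. Mrpl49 (0.12), Mrpl17 (0.11), Mrps31 (0.20), Mrps34 (0.13), Mrps28 (0.07) and Mrps25 (0.02) were the next highest of their subunits and were not called.

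**Figure D4:**
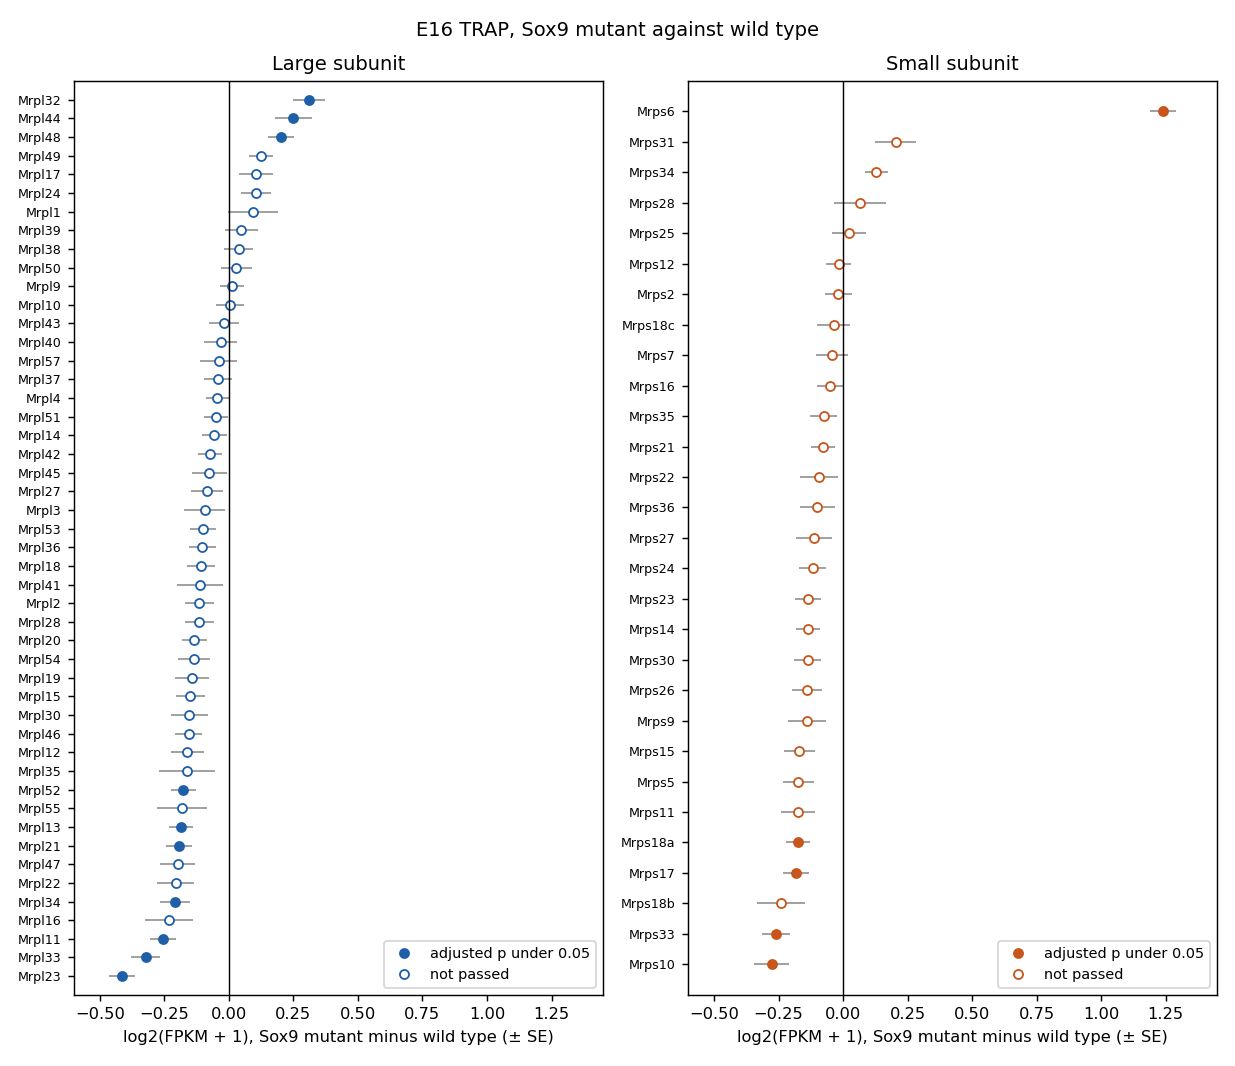
Sox9 mutant minus wild type in log2(FPKM + 1) for each member in the E16 TRAP libraries, with its standard error (2 libraries per genotype), filled where the adjusted p was under 0.05. Mrps6 (1.24) stands alone on the right, and the other members lie between Mrpl23 (-0.41) and Mrpl32 (0.31).

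These small differences rested on few libraries. Without mutant replicate 1, 5 members were called higher and 6 lower, beside 14.3% and 11.0% of all records. Without mutant replicate 2 the counts were 2 and 14, beside 14.5% of all records in each direction. Without wild-type replicate 1 they were 1 and 2 (11.2% and 7.42% of all records), and without wild-type replicate 2 they were 1 and 1 (9.82% and 6.08% of all records). Mrps6 and Mrpl23 were called in all 4 of these fits. With the libraries centred on their medians 2 members were higher and 26 lower, beside 14.7% and 19.7% of all records. With a common total over records of at least 200 bases 7 were higher and 3 lower, beside 22.2% and 9.99% of all records. With a common total over all records none was called in either direction, where 1.41% of all records were higher and 0.489% lower, and Mrpl11, Mrpl23, Mrpl33, Mrpl34, Mrps10, Mrps17, Mrps18a and Mrps33 turned positive while the median of all records moved to 0.41. Mir762 held 50.05% of the FPKM total of wild-type replicate 1.

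Outside the set, the same pathway lists were counted in the mutant, where 17.4% of all records were called higher and 14.3% lower. An unadjusted p under 0.05 in limma was found for 5152 of 11872 records. Chchd1 was the only call among the 6 other proteins of the particle (log2 -0.25). Of 24 assembly factors 0 were higher and 2 lower by limma, Mrm1 (-0.33), an rRNA methyltransferase, and Rbfa (-0.17), while 6 had an unadjusted p under 0.05. Of 14 translation factors Gfm2 (0.30), a recycling factor, was higher and Slirp (-0.17) was lower. Of 17 tRNA synthetases Pars2 (0.31) was higher and 0 were lower by limma, with 3 at an unadjusted p under 0.05. Of 11 genes of mitochondrial DNA transcription and replication 2 were lower, Top1mt (-0.67), a topoisomerase, and Ssbp1 (-0.26), the single-strand binding protein. All 11 had a negative difference, as did 5775 of the 11872 records, and 7 had an unadjusted p under 0.05 in limma.

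Of 9 regulators of mitochondrial biogenesis past the filter 2 were higher and 2 lower (22.2% each), beside 17.4% and 14.3% of all records. Mycn, a transcription factor of growing epithelium, fell to 19.2 and 14.4 FPKM in the mutant, against 44.9 and 46.3 FPKM in wild-type TRAP (log2 -1.40, adjusted p = 0.000951). Gabpb1, a subunit of an ETS factor, also fell (-0.29). Esrra, an orphan nuclear receptor, was higher at 17.4 and 18.2 FPKM in mutant TRAP against 9.35 and 9.81 FPKM in wild-type TRAP (log2 0.83, adjusted p = 0.000501), and Myc was higher too (0.67). Of 78 respiratory chain genes 1 was higher (1.28%) and 15 lower (19.2%), with a median of -0.07. Of 75 cytosolic ribosomal proteins 0 were higher and 18 lower (24.0%) by limma, with a median of -0.19. An unadjusted limma p under 0.05 was found for 51 of the 75, and for 5152 of 11872 records.

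Cell type markers differed between the genotypes as well, and their part in these results was not tested. Of 12 epithelial markers 10 were higher and 1, Nkx2-1, lower in the mutant, with sums of 3557 and 3416 FPKM in mutant TRAP against 2650 and 2623 FPKM in wild-type TRAP. Mesenchymal markers summed to 179 and 238 FPKM in mutant TRAP against 278 and 348 FPKM in wild-type TRAP, with 1 of 12 higher and 2 lower. Endothelial markers summed to 59.3 and 45.6 FPKM in mutant TRAP against 71.0 and 88.0 FPKM in wild-type TRAP, with 2 of 8 lower. Erythroid sums were 276 and 297 FPKM in mutant TRAP against 343 and 350 FPKM in wild-type TRAP, with 1 of 3 lower. Cardiac muscle markers summed to 46.2 and 39.8 FPKM in mutant TRAP against 13.2 and 16.5 FPKM in wild-type TRAP, with 1 of 3 higher, Myh7. No leukocyte marker passed the filter, and their sums were 2.03 and 2.94 FPKM in mutant TRAP against 2.63 and 2.27 FPKM in wild-type TRAP.

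Between E14 and E17 few members were called. In the joint fit of the 4 libraries, with fraction as an additive term, the large subunit had 1 gene higher and 1 lower at E17 and the small subunit 0 higher and 2 lower. The background was 9.51% of 12320 records called higher and 6.36% called lower. An unadjusted limma p under 0.05 was found for 15 large-subunit and 8 small-subunit genes, and for 4209 of the 12320 records. The medians were -0.06 for each subunit, against 0.01 for all records. The stage difference was positive in both fractions for 18 members, negative in both for 38 and of opposite sign for 21. These patterns were not counted over all records. In the joint fit 29 members had a positive and 48 a negative difference, against 6253 and 6067 of the 12320 records. Past 1.5-fold, 1 member was lower at E17 in TRAP (Mrps27), where 6.1% of all records were, and none was in whole lung, where 5.67% of all records were. None was higher past that fold, as 11.7% of all records were in each fraction. No member passed 2-fold in TRAP, where 4.55% of all records were higher and 1.82% lower, or in whole lung, where 4.67% were higher and 1.23% lower. The deposited bounds of E17 and E14 were apart in TRAP for 12 members on the higher side and 25 on the lower side (26.7% and 24.8% of all records). In whole lung they were apart for 11 and 27 members (29.1% and 30.5% of all records).

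Mrpl14, a conserved protein at the face between the subunits, was the call that rose. It had 206 FPKM in E17 TRAP against 142 FPKM in E14 TRAP, and 120 FPKM in E17 whole lung against 92.6 FPKM in E14 whole lung (log2 0.45, SE 0.10, adjusted p = 0.0377). Mrps27, a pentatricopeptide repeat protein of the small subunit, fell. In TRAP it stood at 28.9 FPKM at E14, 18.7 and 18.2 FPKM at E16 in the wild type and 17.6 FPKM at E17, and in whole lung at 21.9 FPKM at E14 and 16.6 FPKM at E17. The log2 difference was -0.53 (SE 0.12, adjusted p = 0.0458), and the record shares 1991 bases with 6430562O15Rik.

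Mrpl12, high as it was in TRAP, was lower at E17 in both fractions (log2 -0.38, adjusted p = 0.0461). Mrps6 was lower as well, at -0.47 (adjusted p = 0.0378). Mrps22 had a difference of -0.43 and an adjusted p of 0.0514, just outside the threshold. Mrps30 (-0.37) and Mrps18b (-0.35) were the next lowest small-subunit genes, and Mrpl19 (-0.38), Mrpl3 (-0.37), Mrpl16 (-0.37) and Mrpl47 (-0.34) the next lowest large-subunit genes, with adjusted p between 0.058 and 0.0953. Mrpl57 (0.38), Mrpl23 (0.33), Mrpl52 (0.31) and Mrpl51 (0.27) were the next highest, with adjusted p between 0.0836 and 0.103. Mrps14 (0.28), Mrps36 (0.18), Mrps24 (0.14), Mrps25 (0.14) and Mrps11 (0.10) were the highest small-subunit genes and were not called.

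**Figure D5:**
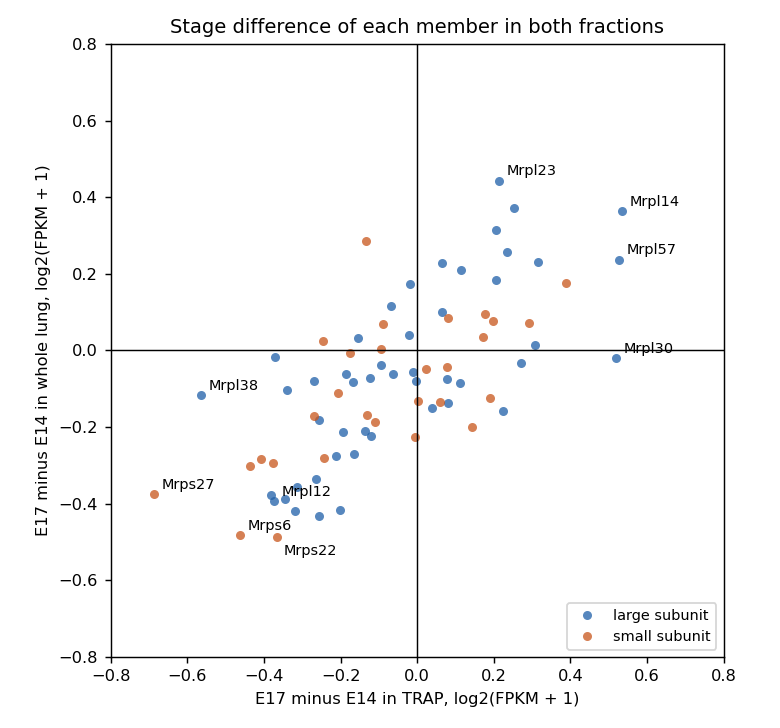
Stage difference (E17 minus E14, log2(FPKM + 1)) of each member in TRAP (horizontal axis) and in whole lung (vertical axis), large subunit in blue and small subunit in orange, 1 library per point and axis. The points spread along the diagonal within about the same range in both fractions, with 38 of 77 below 0 on both axes and Mrpl14 and Mrps27 near its ends.

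The number of calls depended on the fit. With all 8 libraries, whose spread comes from the E16 replicates, 9 large-subunit genes were higher and 13 lower, and 1 small-subunit gene was higher and 10 lower. In that fit 25.5% of all records were higher and 23.2% lower. The 4 members called in the joint fit were among these 33. Without the filter on low values no member was called, where 0.267% of all records were higher and 0.0163% lower. The rank correlation of the stage difference with fragments per FPKM was -0.366 over the members and -0.136 over all records. Fragments per FPKM grow with transcript length. With mean FPKM the rank correlation was 0.397 over the members and -0.055 over all records. The part of length or of level in the stage difference was not tested. Cell type markers changed too, with 4 of 12 epithelial and 7 of 10 endothelial markers higher at E17 and none of either lower. Among mesenchymal markers 1 of 12 was higher and 1 lower, among leukocyte markers 2 of 7 were higher, among erythroid markers 2 of 6 were higher and 2 lower, and among cardiac markers 1 of 5 was higher.

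Among the factors that serve the mitochondrial ribosome, the few stage calls were on the lower side. Over all records 6.36% were called lower and 9.51% higher, and 4209 of 12320 had an unadjusted p under 0.05 in limma. Of 14 translation factors 5 were lower at E17 and 0 higher, among them Tufm (log2 -0.54) and Gfm1 (-0.57), the elongation factors, Gfm2 (-0.72) and Lrpprc (-0.85), an mRNA-stabilising protein. Lrpprc had 11.6 FPKM in E17 TRAP against 26.3 FPKM in E14 TRAP, and 8.38 FPKM in E17 whole lung against 13.0 FPKM in E14 whole lung. Of 17 tRNA synthetases 3 were lower, Aars2 (-0.62), Yars2 (-0.61) and Ears2 (-0.59). Of 24 assembly factors Fastkd2 (-0.59) and Dhx30 (-0.48) were lower (8.33%), close to the share of all records. Of the 6 other proteins of the particle only Ptcd3 (-0.50) was lower. Of the 10 regulators Pprc1 (-0.63) and Mycn (-0.62) were lower. Of the 11 genes of mitochondrial DNA transcription and replication 0 passed limma's test in either direction, with 1 at an unadjusted p under 0.05. By contrast, 5 of 78 respiratory chain genes were higher and 0 lower, and 72 of 75 cytosolic ribosomal proteins had a positive difference, of which 0 were called higher and 1 was called lower, with 8 of the 75 at an unadjusted p under 0.05.

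Sequence features of the members were described apart from their values. RefSeq promoter windows, running from 250 bases before to 50 bases after the start, were at hand for 68 of the 77 members and 15367 protein-coding genes in all. Each motif was searched on both strands by its exact letters, and none of them contains another. The ETS motif CCGGAAG was in 35.3% of the members' windows against 12.5% of all windows, and the YY1 motif AAGATGGCG in 11.8% against 2.095%. The NRF1 motif GCGCATGCG was in 10.3% (Mrpl9, Mrpl10, Mrpl17, Mrpl22, Mrpl32, Mrpl39 and Mrps18b) against 2.609%. The GC box was in 34 of 68 members' windows against 49.2% of all windows, CCAAT in 39.7% against 38.8%, the E-box CACGTG in 7.35% against 8.28% and TATAAA in 5.88% against 13.0%. A window of a member held a median of 21 CG dinucleotides against 15 over all windows. The windows of all genes were not limited to expressed genes, whereas every member was detected. A match describes letters and not binding.

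Another gene started within 1000 bases in the opposite direction for 26 of 68 members (38.2%), against 12.7% of all genes with a window. The closest pair within the set is Mrps11 and Mrpl46, whose starts lie 42 bases apart on chromosome 7. Their levels were similar at E14: Mrps11 had 47.6 and Mrpl46 49.5 FPKM in E14 TRAP, against 34.2 and 30.5 FPKM in E14 whole lung. In E17 TRAP they had 53.8 and 40.8 FPKM, against 35.0 and 28.8 FPKM in E17 whole lung. The deposited bounds of the pair did not overlap in either E17 library. From E14 to E17 in TRAP, Mrps11 rose (log2 0.17) and Mrpl46 fell (-0.27), with 1 library per stage. Both were called higher in TRAP (log2 0.54 and 0.58), and neither was called in the mutant, at -0.18 and -0.16. The bases between their starts, and the 120 bases before Mrpl34 and Mrpl32, are shown because these genes stand for the pair with starts side by side, for a member high in TRAP and for the highest large-subunit gene in the mutant. All are from RefSeq (GRCm38.p6), with the motifs named above in capitals. The first lies at chr7:78783090-78783130 on the plus strand and is marked for the GC box only, the second at chr8:71464806-71464925 on the plus strand, with an ETS match, and the third at chr13:14613038-14613157 on the minus strand, with NRF1 matches and a GC box.
Mrps11 and Mrpl46 between starts: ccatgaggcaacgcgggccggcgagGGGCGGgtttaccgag
Mrpl34 upstream: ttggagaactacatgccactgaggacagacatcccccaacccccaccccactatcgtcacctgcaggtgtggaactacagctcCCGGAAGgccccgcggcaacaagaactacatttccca
Mrpl32 upstream: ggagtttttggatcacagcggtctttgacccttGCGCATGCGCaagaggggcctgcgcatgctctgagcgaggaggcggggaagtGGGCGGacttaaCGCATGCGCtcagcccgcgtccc

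The 77 genes lie on 17 chromosomes and have no duplicated symbol in the tables. Their records span between 825 and 121712 bases, with a median of 7306. Another record overlaps 11 of them: Mrpl19, Mrpl21, Mrpl24, Mrpl41, Mrpl48, Mrpl49, Mrpl53, Mrps6, Mrps23, Mrps25 and Mrps27. Whether the counting used strand was not given in the sources used, so shared fragments make these values less certain than the others.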

How the data were processed

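The members and the gene lists were chosen with earlier results of these data known. Per the submitters' processing notes, the tools were Bowtie2 2.2.3, TopHat2 2.0.14, Cuffnorm and Cufflinks 2.2.1, and the build was mm10. The authors deposited 1 table per library of FPKM values with lower and upper bounds, per the file headers, for 24487 records. The values were used without rescaling. Starts are counted from 0 in the tables, and 1 was added. Fragment numbers were inferred as the squared ratio of FPKM to its standard error, with the upper bound read as 2 standard errors above it. Of 77 members, 77 had a RefSeq entry.

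Values were tested as log2(FPKM + 1), which understates changes of low genes, with limma 3.58.1 (R 4.3.3) and its trended eBayes. Tests were two-sided, and p-values were adjusted by Benjamini-Hochberg (threshold 0.05) over records averaging at least 1 FPKM. The mutant fit used the 4 E16 TRAP libraries (2 residual and 3.73 prior degrees of freedom). TRAP and stage came from 1 additive fit of the 4 libraries of E14 and E17 (1 residual and 4.47 prior degrees of freedom), in which p measures the disagreement between stages or fractions. Named genes were the 5 highest and 5 lowest differences per subunit and comparison, the 3 highest and 3 lowest mean levels per subunit, the Mrps18 paralogs, Mrps30, Mrps36, Sox9, and up to 4 genes of smallest p per list. Slc5a3, Nkx2-1, Myh7, Mir762, Gabpa, Mrpl13, Mrpl21, Mrpl42, Mrpl46 and the genes listed for a motif or an overlap were named beside them after their values were seen.

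The fits were first tested on simulated data, in which the share of calls on unchanged genes was above the threshold in the TRAP and stage designs, and most 1.5-fold changes were missed in the mutant and stage designs. Replicates of the E16 libraries differed by more than counting error (median squared difference over error 1.51 in the mutant and 1.19 in the wild type), and each was kept as a sample. Alternatives covered the pseudocount, the filter, 3 scalings, all 8 libraries in 1 fit, each replicate left out, the replicate block and the subunits by structure.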

Additional observations from a re-analysis of the deposited data

How the results depend on the processing

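Across the alternatives 141 counts and medians of whole comparisons kept their size and 81 moved. With 1 common FPKM total, the mutant counts over all records were 167 higher and 58 lower, and the members' medians were 0.35 (large) and 0.34 (small) with 0 members called in either direction and subunit. In the same setting the TRAP count over all records was 547 higher, with 0 members of either subunit called higher and medians of 0.14 and 0.0403, and the stage count was 517 higher, with 0 members called and medians of -0.33 and -0.34. Under that total the mutant differences of Mrpl11 (0.19), Mrpl23 (0.0441), Mrpl33 (0.14), Mrpl34 (0.25), Mrps10 (0.17), Mrps17 (0.26), Mrps18a (0.28) and Mrps33 (0.20) turned positive. The median of all records moved to 0.41 from 0.01 by that scaling, and the members' medians lay at -0.06 (large) and -0.07 (small) relative to it, against -0.11 and -0.12 as deposited. Mrps6 was not called in the mutant there (log2 1.68, adjusted p = 0.319), but was in the other 10 alternatives, over a range of 1.19 to 1.31.

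With a common total over records of at least 200 bases, the mutant had Mrpl32, Mrpl44, Mrpl48 and Mrpl49 higher and 2 large-subunit genes lower. It had 3 small-subunit genes higher and 1 lower (medians -0.0309 for the large and -0.0431 for the small subunit). The TRAP medians were 0.43 and 0.33, and the stage counts were 3 and 6 lower (medians -0.13 and -0.14) and 1361 lower over all records. With libraries centred on their medians, the mutant had 1 large-subunit gene higher and 13 lower. In the small subunit Mrps6 alone was higher and 13 genes were lower (medians -0.15 for the large and -0.16 for the small subunit). The TRAP medians were 0.56 and 0.47, and the stage had 0 large-subunit genes higher (medians -0.0915 and -0.098). A minimum of 5 FPKM left 1267 records lower in TRAP, and in the stage 0 large-subunit genes and 1 small-subunit gene lower, as did a pseudocount of 0.1. Without a filter the stage had 49 records higher and 3 lower, and 0 members. With all 8 libraries in 1 fit, 4638 records were higher and 3522 lower in TRAP, 3125 higher and 2846 lower at E17, and the stage counts were 9 higher and 13 lower (large) and 1 higher and 10 lower (small). Past 2-fold in place of 1.5-fold, 3 members differed at E14 and 2 at E17 in TRAP against whole lung, against 29 and 28, and 0 between stages in TRAP.

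Leaving out 1 replicate of the mutant comparison gave 1166 to 1716 records higher and 722 to 1720 lower. In the large subunit it gave 0 to 3 higher, 1 to 8 lower and medians of -0.12 to -0.0561, and in the small subunit 1 to 2 higher, 0 to 6 lower and medians of -0.14 to -0.0724. In these fits the lone library was assumed to vary like the other genotype. Same-numbered E16 libraries did not deviate together (correlation 0.0072 over all records), so the numbers are not known to pair them. With the replicate block 2 small-subunit genes were lower, and 3 members in all were higher and 7 lower, beside 16.2% and 13.3% of all records.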

Other observations

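The wild-type TRAP libraries of E16 did not fall between those of E14 and E17 for every member. Both E16 wild-type values lay above both the E14 and E17 TRAP values for 17 members and below both for 21, where 23.5% of all records lay above and 30.0% below. Mrpl42 had 184 FPKM at E14, 302 and 303 FPKM at E16 and 176 FPKM at E17, so that the E16 mean was 1.65 times the higher of the flanking libraries. Mrps21 had 338 FPKM at E14, 551 and 560 FPKM at E16 and 358 FPKM at E17, a ratio of 1.55, and Mrps24 had a ratio of 1.42. At the other end Mrps22 had 33.1 FPKM at E14, 20.8 and 21.7 FPKM at E16 and 25.5 FPKM at E17. The E16 libraries belong to another comparison, the sources used here do not say whether they were prepared with the others, and no test was run on these values.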
